A study of Caenorhabditis elegans with 71 samples.

Results

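The comparison described here is the second step of recovery from starvation arrest in larvae of the nematode Caenorhabditis elegans: the interval from the first to the third sampling time after food was given. Its 6 libraries, of 71 in the series, were picked by population and time label, a rule that uses no measured value. The comparison itself was chosen with earlier results of these data known. The study sequenced poly(A) RNA of whole larvae along time courses of feeding and growth. Larvae hatched without food from embryos isolated with hypochlorite, so that development stops in the first larval stage (L1), and time runs from their placement on plates with OP50 Escherichia coli. Wild type N2 at 20C (population DH2) entered with its libraries of 2 h and 6 h, wild type N2 at 25C (DH3) with those of 1.5 h and 4.5 h, and population DH4, carrying lin-4(e912), at 20C with those of 2 h and 6 h. N2 is the standard laboratory strain, and lin-4 encodes a microRNA that times larval development. These times are called the start and the end of the step, and each population gives 1 pair, so n = 3 pairs throughout. The pair at 25C spans 3 h and the pairs at 20C span 4 h. Each time point is 1 library, every population differs from the others in temperature, genotype or both, so temperature, genotype and population cannot be told apart.

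A larva that hatches without food stops before any postembryonic division and can survive for days, drawing on stored fat in part through the glyoxylate cycle. Food restarts feeding, digestion and growth within hours, while the epidermis, which secretes the cuticle, prepares the program that will end in the first molt. In whole animals fewer cells of a type and less RNA per cell cannot be told apart.

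Estimated depth of the 6 libraries was 16.0 to 34.3 M reads. The arrest label was read through genes of fasting that are high before the step. The acyl-CoA synthetase gene acs-2 was at 1228, 1752 and 569 RPKM in DH2, DH3 and DH4 at 0 h and at 15.4, 3.18 and 23.3 RPKM at the start of the step. gei-7, now called icl-1, encodes the glyoxylate cycle enzyme and went from 1389, 2052 and 1471 RPKM to 109, 7.65 and 30.5 RPKM. Both genes had thus left their arrest level before the step began. Early embryo markers stood higher in DH2 than elsewhere: the 20 genes of that list summed to 165 RPKM at the start in DH2 (0 genes at 0 RPKM), 84.7 RPKM in DH3 (3 at 0) and 108 RPKM in DH4 (1 at 0), and to 93.8, 69.4 and 79.2 RPKM at the end. skn-1, which larvae also express, holds 63.5, 63.2 and 73.1 RPKM of the sums at the start. The embryonic RNA-binding protein gene pos-1 was at 40.6 RPKM in DH2, 1.22 RPKM in DH3 and 8.46 RPKM in DH4 at the start, and at 10.4, 1.26 and 2.58 RPKM at the end. The 39 adult markers summed to 2.95 to 10.7 RPKM, while 14 intestine markers summed to 3571 to 5240 RPKM and 16 pharynx markers to 1176 to 1685 RPKM.

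Of 13179 genes tested, 92 rose (0.698%) and 125 fell (0.948%) between the start and the end of the step, at a Benjamini-Hochberg adjusted p under 0.05 in limma and a mean change of at least 1 log2 unit. Changes are differences of log2(RPKM + 1), end minus start, within a population. An unadjusted p under 0.05 was reached by 3433 of the 13179 genes, the share to set beside such counts in the lists below. All 217 called genes moved the same way in 3 of 3 pairs. Values at the end lay wholly outside those at the start for 80 of the 92 genes that rose and 83 of the 125 that fell; over all genes tested, 7.95% had every end value above every start value and 8.32% had every one below. The counts depended on the populations. Without DH4 limma called 0 genes in either direction (2034 at an unadjusted p under 0.05), without DH3 it called 156 higher and 347 lower, and without DH2 it called 92 higher and 61 lower. These fits could not change the direction of a called gene, since each had moved the same way in 3 of 3 pairs. A change of 2-fold or more within a single pair was seen for 217 genes upward and 822 downward in DH2, 243 and 274 in DH3, and 243 and 194 in DH4. In DH2 the start library exceeded both others by more than 2 times for 8.23% of genes tested, for 12.8% of the genes that fell and for 15.2% of those that rose. The part of this library in the calls was not tested beyond leaving out its population.

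**Figure D1:**
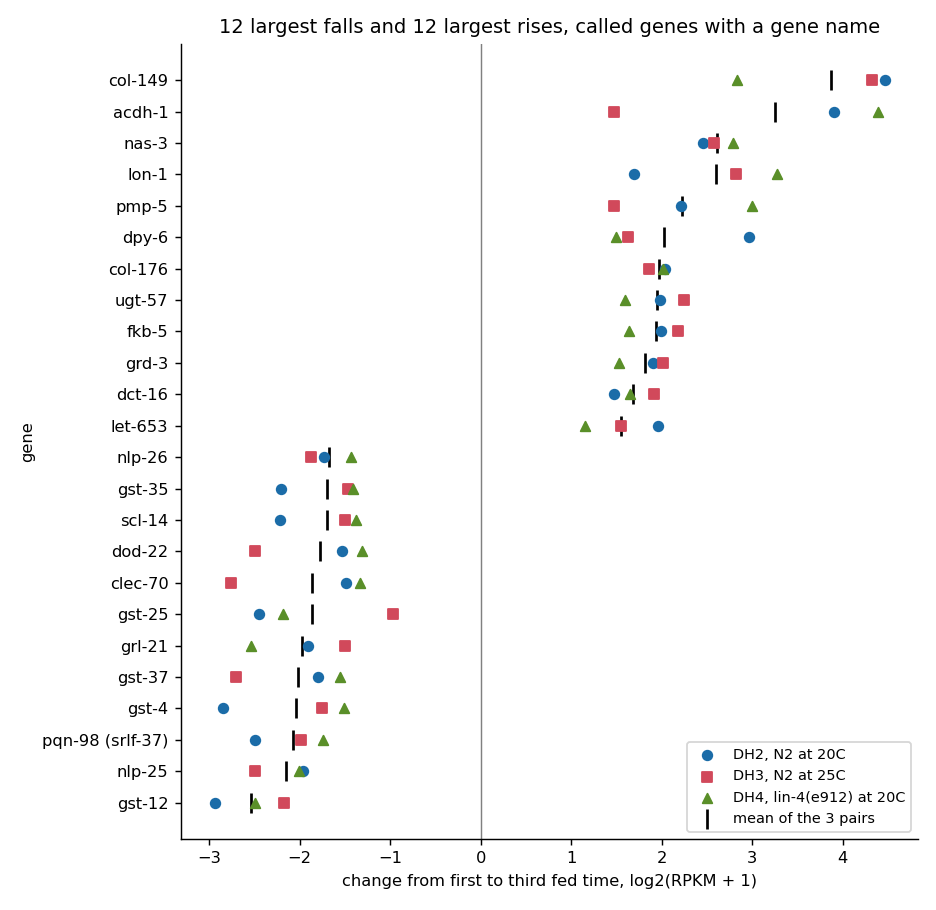
Change of the 12 called genes that fell most and the 12 that rose most among those that carry a gene name in the deposited table (called genes with a sequence name only are not shown), each symbol being 1 pair (population) and the black tick the mean of the 3 pairs, in log2(RPKM + 1) units, end of the step minus start. The rises run from 1.55 for let-653 to 3.88 for col-149 and the falls from -1.68 for nlp-26 to -2.54 for gst-12; acdh-1 has the widest spread between pairs (SD 1.56).

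Several genes of the cuticle and of body shape were among the largest rises. The collagen gene col-149 went from 2.78 to 82.7 RPKM in DH2, from 6.91 to 158 RPKM in DH3 and from 1.63 to 17.8 RPKM in DH4. All 3 end values exceeded all 3 start values, and the mean change was 3.88 ± 0.90 log2 (SD, n = 3; limma adjusted p = 0.015). nas-3, a secreted protease of the astacin family, was below 1 RPKM at every start (0.699, 0.466 and 0.0913 RPKM in DH2, DH3 and DH4) and reached 8.36, 7.76 and 6.56 RPKM. Its change of 2.61 ± 0.17 log2 (adjusted p = 0.015) was nearly the same in each pair. lon-1, a secreted protein that limits body length downstream of TGF-beta signalling, went from 11.6 to 39.6, from 5.54 to 45.3 and from 2.92 to 37 RPKM. The end values of lon-1 were alike in the 3 populations while the start values were spread (change 2.60 ± 0.82, adjusted p = 0.022). dpy-6, a mucin-like protein needed for normal body shape, went from 11.11 to 93.3, from 14.5 to 47 and from 10.6 to 31.8 RPKM (2.03 ± 0.81, adjusted p = 0.033).

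A transcription factor of molting also rose. nhr-23, a nuclear hormone receptor required for molting, went from 3.95 to 13.7 RPKM in DH2, from 3.00 to 11.3 RPKM in DH3 and from 2.16 to 7.74 RPKM in DH4. Start and end values did not overlap, and the change of 1.55 ± 0.08 log2 (adjusted p = 0.015) varied little between pairs. It was the 1 called gene among 14 molting transcription factors tested, while 0.698% of all genes were called higher. Of the 14, 9 were higher in all 3 pairs (19.6% of all genes were) and 1 was lower (30.8%). Their median change was 0.51 against -0.07 over all genes. pqn-47, now called myrf-1 and also a regulator of larval molting, went from 43.7 to 93.3, from 40.2 to 66.4 and from 43.1 to 61.6 RPKM and did not pass (0.77 ± 0.29, adjusted p = 0.061). pop-1, the TCF factor of Wnt signalling that patterns seam and other asymmetric divisions, rose by 1.15 ± 0.22 (adjusted p = 0.025) from 15.4, 11 and 8.61 RPKM to 31.6, 30.6 and 19 RPKM, as 1 of 13 seam and epidermal fate factors.

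Secreted matrix and hedgehog-related genes, which the epidermis makes, were called in both directions. let-653, an apical matrix protein that shapes the larval surface, rose from 5.67 to 24.9, from 3.73 to 12.8 and from 2.80 to 7.49 RPKM (1.55 ± 0.40, adjusted p = 0.022) as 1 of 34 molting and matrix factors. Of 30 hedgehog-related genes 2 rose and 1 fell (0.698% and 0.948% of all genes did). grd-3 rose from 21.4, 11.6 and 16.3 RPKM to 82.4, 49.8 and 49 RPKM (1.82 ± 0.25, adjusted p = 0.015), and the more abundant grd-10 rose from 79.0, 45.7 and 88.0 RPKM to 194, 137 and 175 RPKM (1.28 ± 0.29). grl-21 fell from 141 to 36.9 RPKM in DH2, from 4.604 to 0.985 RPKM in DH3 and from 66.7 to 10.7 RPKM in DH4 (-1.98 ± 0.52, adjusted p = 0.020), so its level differed more between populations than its change did. Among 17 astacins, nas-3 rose and nas-7 fell (-1.39 ± 0.41), and 10 were lower in all 3 pairs (30.8% of all genes were). Of 22 patched-related genes and 11 collagen-processing enzymes limma called 0, with 3 and 7 at an unadjusted p under 0.05 (3433 of all 13179 genes were).

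Of 81 cuticle collagens tested 2 rose, col-149 and col-176, and 5 fell (0.698% and 0.948% of all genes did). The median change of the 81 was -0.09 (0.01 over the 52 with a mean of at least 5 RPKM). col-176 went from 17.6 to 75.5, from 2.28 to 10.9 and from 2.02 to 11.23 RPKM (1.97 ± 0.09, adjusted p = 0.015), near the same change from unequal levels. sqt-3, a collagen needed from the embryo on, went from 129 to 29.1 RPKM in DH2 but from 3.49 to 0.813 RPKM in DH3 and from 9.17 to 3.22 RPKM in DH4 (-1.56 ± 0.47, adjusted p = 0.027). dpy-17, which acts with sqt-3, had the same pattern, at 133, 2.42 and 13.8 RPKM at the start and 27.6, 0.339 and 7.15 RPKM at the end. Among the 6 libraries these collagens were highest where the embryo markers were highest, in the start library of DH2. At the fifth fed time in DH2 sqt-3 was at 177 RPKM, dpy-17 at 7.52 RPKM and the embryo marker pos-1 at 3.12 RPKM. The part of the embryo markers in the fall was not tested. By the adjusted p alone, whatever the size, 9 collagens were lower and 2 higher (1.62% and 1.12% of all genes were), against 1 without DH2, 26 without DH3 and 0 without DH4. The most abundant collagens, col-117 and col-3, did not pass (both 0.11 ± 0.15); collagens are alike in sequence and reads of one could have been counted for another.

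Of the metabolic genes named here the largest change was that of acdh-1, the acyl-CoA dehydrogenase that opens the propionate shunt. This pathway burns propionate without vitamin B12, and acdh-1 is known to be high on a bacterial diet low in that vitamin, such as OP50. acdh-1 went from 30.3 to 468 RPKM in DH2, from 0.314 to 2.65 RPKM in DH3 and from 22.3 to 488 RPKM in DH4. It rose in every pair (3.26 ± 1.56, adjusted p = 0.042), yet its end value at 25C lay below both start values at 20C. At 0 h it was at 470, 2.96 and 229 RPKM, so the start of the step was the lowest of the first 4 sampling times in each population. nhr-68, a nuclear receptor known to turn on the shunt, went from 13.5 to 39.6, from 6.34 to 12.0 and from 14.7 to 53.2 RPKM (1.36 ± 0.49, adjusted p = 0.035) and was also lowest at 25C. nhr-10, the other receptor known to act on the shunt, was named after its values were seen; it was lower in all 3 pairs and did not pass (-0.28 ± 0.16, adjusted p = 0.245).

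Other enzymes of the shunt, named here after their values were seen, had larger changes at 20C than at 25C and did not pass. ech-6, an enoyl-CoA hydratase, went from 105 to 345, from 79.0 to 121 and from 64.3 to 286 RPKM (1.48 ± 0.79, adjusted p = 0.058). Y38F1A.6 (hphd-1), a transhydrogenase, went from 25.12 to 256, from 12.2 to 21.1 and from 17.1 to 169 RPKM (2.42 ± 1.46, adjusted p = 0.062). F09F7.4 (hach-1), a hydrolase, went from 45 to 92.2, from 39.7 to 50.4 and from 38.2 to 82.9 RPKM (0.82 ± 0.42). In these 3 genes the change was smallest in DH3, a difference that 1 pair cannot test. alh-8, the last enzyme of the shunt, had values of 519, 327 and 399 RPKM at the start and 665, 282 and 547 RPKM at the end (0.20 ± 0.36). The enzymes of the canonical, B12-dependent route had small mean changes that did not pass: 0.30 for the carboxylase subunit pcca-1, 0.19 for pccb-1 and 0.30 for the mutase mmcm-1.

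Of the methionine cycle, the other pathway that uses vitamin B12 in animals, some genes rose and others did not pass. R03D7.1 (metr-1), the B12-dependent methionine synthase, went from 33.9 to 117 RPKM in DH2, from 54.8 to 115 RPKM in DH3 and from 51.3 to 154 RPKM in DH4 (1.46 ± 0.36, adjusted p = 0.022). C06A8.1 (mthf-1), which supplies the folate methyl group for it, went from 44.8 to 102, from 43.6 to 123 and from 37.5 to 132 RPKM (1.48 ± 0.31, adjusted p = 0.020). For both genes every end value exceeded every start value. cblc-1, which processes the vitamin and was named after its values were seen, rose from 15.8, 13.3 and 17.9 RPKM to 29, 25.9 and 49.1 RPKM (1.05 ± 0.31, adjusted p = 0.035), while mmaa-1, looked up with it as another gene of B12 processing, did not pass (0.39 ± 0.52, adjusted p = 0.294). tag-165 (mtrr-1), the reductase partner of the synthase, went from 21.7 to 38.5, from 20.6 to 25.6 and from 21.3 to 60.1 RPKM and did not pass (0.85 ± 0.58, adjusted p = 0.093). sams-1, which makes S-adenosylmethionine, went from 136 to 300, from 246 to 346 and from 192 to 403 RPKM (0.90 ± 0.35, adjusted p = 0.054). In all, 3 of the 16 genes of the methionine and phosphatidylcholine list rose (0.698% of all genes did) and 0 fell. acdh-1 is on this list. In all 3 pairs 11 of the 16 were higher (19.6% of all genes), and the list's median change was 0.65.

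**Figure D2:**
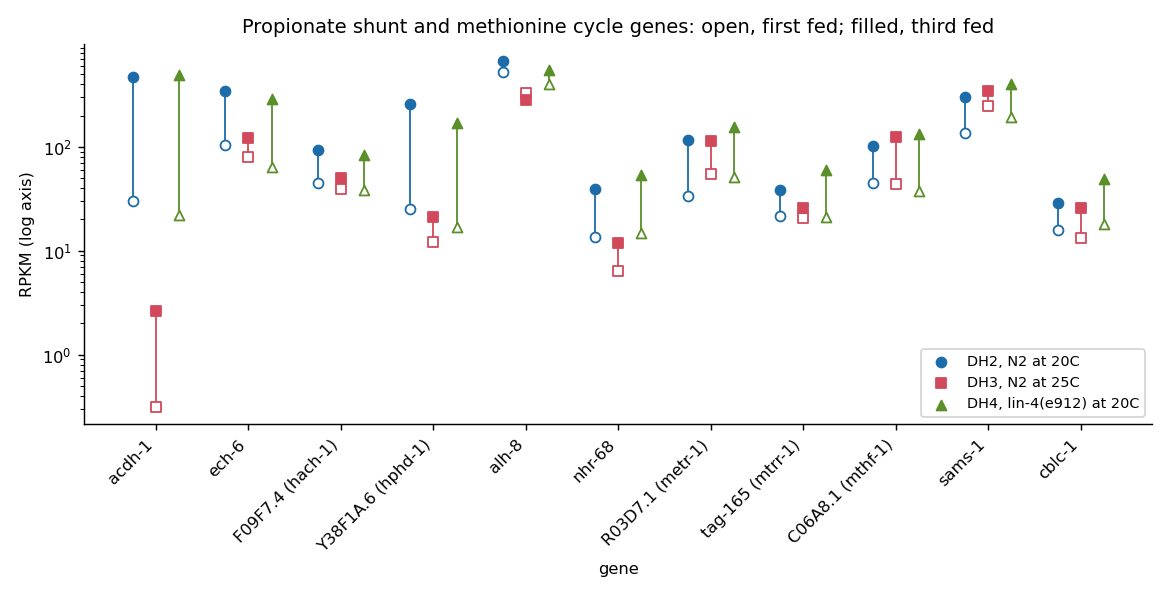
Levels of propionate shunt and methionine cycle genes at the start (open) and the end (filled) of the step, in RPKM on a log axis, 1 pair per population. acdh-1 in the 25C population ends at 2.65 RPKM, below the start values of 30.3 and 22.3 RPKM at 20C, while metr-1 and mthf-1 end between 102 and 154 RPKM in all populations.

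Lists of fuel use and lipids held calls in both directions, and pmp-5 and pyc-1 are not on them. pmp-5, an ABC transporter related to peroxisomal carriers, went from 13.7 to 66.9, from 7.60 to 22.9 and from 10.4 to 90 RPKM (2.23 ± 0.76, adjusted p = 0.027), as 1 of the 12 largest named rises. pyc-1, pyruvate carboxylase, named after its values were seen, rose from 58.9, 25.8 and 42.8 RPKM to 140, 38.2 and 105 RPKM (1.02 ± 0.41, adjusted p = 0.0498), so it lies at the edge of the threshold. Of 34 starvation and fuel-use genes 1 rose and 2 fell (0.698% and 0.948% of all genes did). cpt-5, a carnitine palmitoyltransferase, rose from 6.80, 4.18 and 4.18 RPKM to 35.1, 8.56 and 12.34 RPKM (1.49 ± 0.67, adjusted p = 0.046). R11G11.14 (lipl-3), a lysosomal lipase induced by fasting, was at 23.2, 22.5 and 12.4 RPKM at 0 h and fell in the step from 6.08, 1.88 and 3.31 RPKM to 2.96, 0.260 and 0.461 RPKM (-1.20 ± 0.36, adjusted p = 0.033). ech-9 fell by 1.10 on the log2 scale. acs-2 and gei-7 had no common direction in the step (-0.25 ± 0.97 and 0.21 ± 0.61). Among 15 yolk and lipid carriers the fatty acid binding protein lbp-5 rose (1.16 ± 0.47) and the retinol-binding far-3 fell (-1.40 ± 0.25), while the abundant far-1, at 2188 to 2912 RPKM, had a change of 0.15 ± 0.04.

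A few gut genes were called upward. Mean changes of the digestive enzymes tested ran from -2.31 to 1.33, and the largest fall did not pass. ges-1, the gut esterase, went from 14.1 to 25.7, from 7.43 to 19.3 and from 8.86 to 23.5 RPKM (1.14 ± 0.27, adjusted p = 0.029). lys-7, a lysozyme, went from 55.0 to 131, from 50.7 to 117 and from 33.6 to 86.4 RPKM (1.26 ± 0.07, adjusted p = 0.017). With the aspartyl protease F28A12.4 (asp-13; 1.33 ± 0.47) and the saposin-like spp-2 (1.27 ± 0.55), they were 4 rises and 0 falls among 54 digestive enzymes, whose median change was 0.01 and of which 18 were higher and 14 lower in all 3 pairs (19.6% and 30.8% of all genes were; 0.698% of all genes were called higher). ges-1, asp-13 and spp-2 had been higher at 0 h (48.1, 26.2 and 50.9 RPKM for ges-1), whereas lys-7 had been at 29.8, 48.2 and 28.8 RPKM. Of 14 intestine markers ges-1 was the 1 called, and the gut actin act-5 (0.24 ± 0.16) and the aspartyl protease asp-1 (0.15 ± 0.20) did not pass. mtl-2, a gut metallothionein, went from 69.1 to 485, from 70.9 to 380 and from 176 to 295 RPKM and missed the threshold (1.98 ± 1.09, adjusted p = 0.057).

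**Figure D3:**
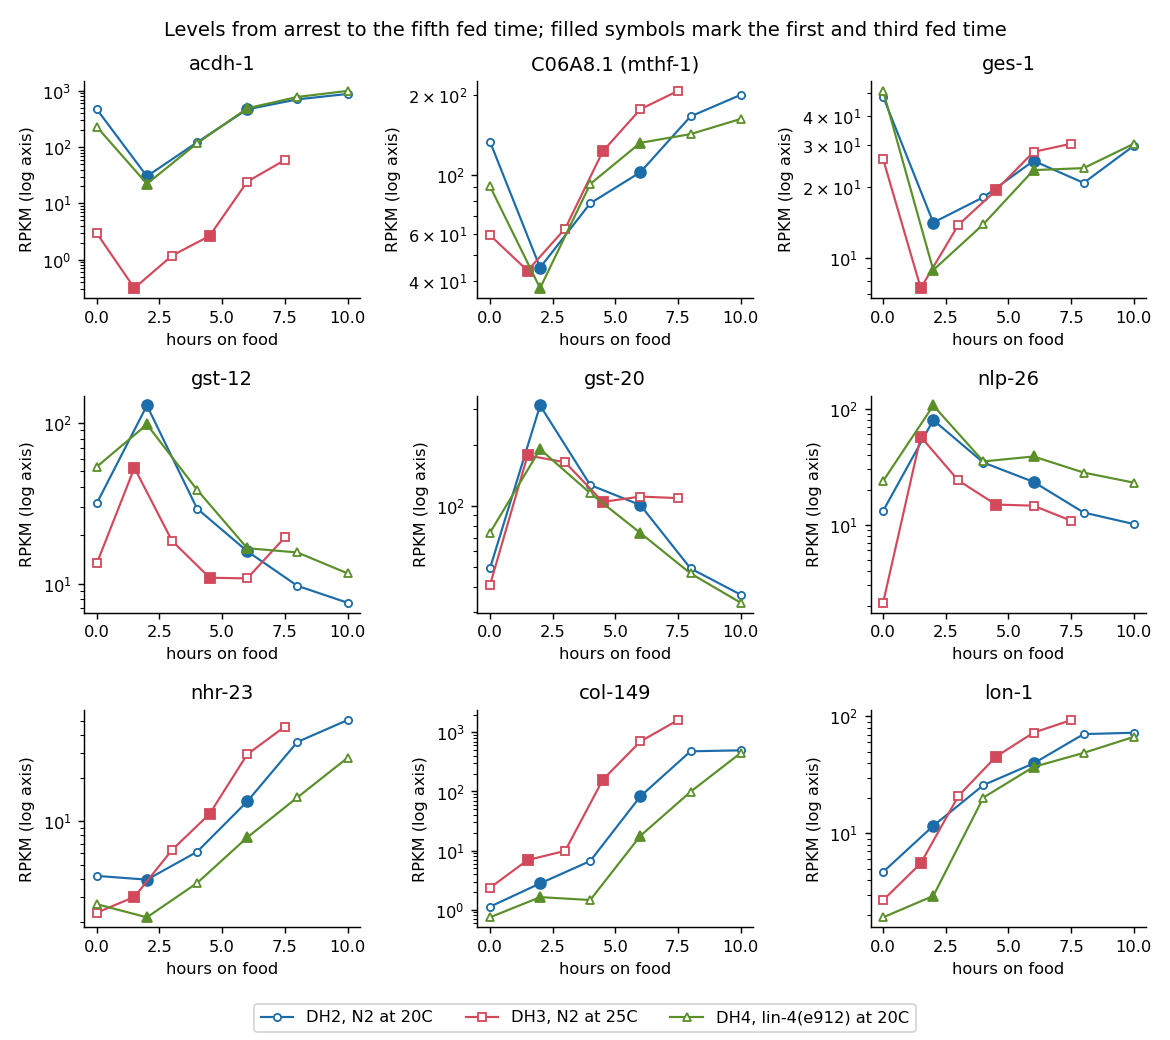
Levels of 9 named genes from arrest (0 h) to the fifth fed sampling time, in RPKM on a log axis against hours on food, 1 line per population, with filled symbols at the start and the end of the step. acdh-1, mthf-1 and ges-1 are lowest at the start of the step, gst-12, gst-20 and nlp-26 are highest there, and nhr-23, col-149 and lon-1 climb on to the last point shown in all lines.

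Enzymes that modify foreign and lipid compounds divided by family. Of 54 cytochrome P450 genes 4 rose and 0 fell (0.698% and 0.948% of all genes did). All 4 are from the cyp-35 family of the gut. cyp-35A2 went from 19.8 to 70.2, from 22.8 to 56 and from 20.0 to 63.8 RPKM (1.55 ± 0.27, adjusted p = 0.016), and cyp-35A3, cyp-35A5 and cyp-35C1 rose by 1.27, 1.26 and 1.04. Members of this family are alike in sequence, and no source used here gives a rule for dividing shared reads, so the 3 cyp-35A genes may not be separate measurements. Of 63 UDP-glucuronosyltransferases, which attach sugars, 4 rose (6.35%) and 1 fell (1.59%). C23G10.6 (ugt-66) went from 3.03 to 8.86, from 2.45 to 18.6 and from 4.39 to 24.5 RPKM (2.01 ± 0.64), and ugt-57 from 6.61 to 29.1, from 2.44 to 15.3 and from 3.59 to 12.9 RPKM (1.94 ± 0.33, adjusted p = 0.015).

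Glutathione S-transferases went the other way: 8 of 46 fell and 0 rose (0.948% and 0.698% of all genes did), with a median change of -0.36. gst-12 went from 129 to 15.9 RPKM in DH2, from 52.6 to 10.9 RPKM in DH3 and from 98.1 to 16.6 RPKM in DH4, the largest fall among the named genes (-2.54 ± 0.38, adjusted p = 0.015). gst-4, the target of the stress factor SKN-1 that is widely used as its reporter, went from 138 to 18.2, from 42.8 to 12.0 and from 152 to 52.5 RPKM (-2.04 ± 0.72, adjusted p = 0.029). Its groups overlapped, since the end value in DH4 exceeded the start value in DH3. gst-37, gst-25 and gst-35 fell by 2.02, 1.87 and 1.70, and gst-30, gst-14 and gst-20 by 1.50, 1.50 and 1.24. gst-20, the most abundant of the 8, was at 312, 177 and 190 RPKM at the start and 101, 105 and 73.7 RPKM at the end. It had been at 49.3, 40.8 and 73.8 RPKM at 0 h, and gst-12 at 31.6, 13.3 and 53.4 RPKM, whereas gst-35 had been at 63.6, 33.8 and 69.1 RPKM, above its start values of 60, 14.8 and 39.0 RPKM. Members of the family are alike in sequence and may share reads. In all 3 pairs 9 members were higher and 24 lower, against 19.6% and 30.8% of all genes, so the count of higher members is at the share of all genes. The abundant gst-27 (181 to 243, 147 to 213 and 160 to 233 RPKM) did not pass (0.49 ± 0.07, adjusted p = 0.081), and neither did gst-24 (-1.08 ± 0.96), whose value hardly differed in DH3. By the adjusted p alone 12 members were lower, 5 without DH2, 14 without DH3 and 0 without DH4, and the median stayed between -0.41 and -0.34. skn-1 itself, which encodes that factor, had a change of -0.34 ± 0.06 (adjusted p = 0.16).

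**Figure D4:**
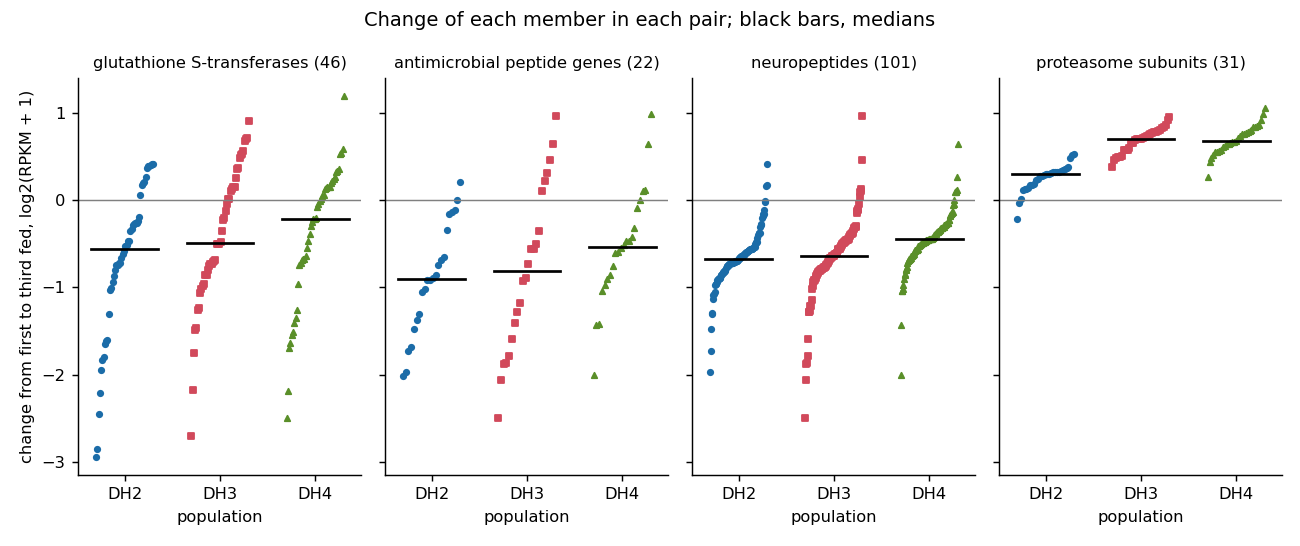
Change of every tested member of 4 gene lists in each pair, in log2(RPKM + 1) units, end of the step minus start, sorted within each population; black bars are medians. Medians of the 46 glutathione S-transferases, 22 antimicrobial peptide genes and 101 neuropeptide genes are below 0 in all 3 populations, and those of the 31 proteasome subunits are above 0 (0.29, 0.70 and 0.68).

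Antimicrobial peptide genes, many of them expressed in the epidermis, fell in 5 of 22 (0.948% of all genes fell) and rose in 0. Of the 22, 16 were lower in all 3 pairs (30.8% of all genes), and the median change was -0.83. nlp-25 went from 20.1 to 4.39, from 7.46 to 0.503 and from 25.18 to 5.50 RPKM (-2.16 ± 0.29, adjusted p = 0.015). nlp-26 went from 79.9 to 23.4, from 57.4 to 14.9 and from 107 to 38.8 RPKM (-1.68 ± 0.22, adjusted p = 0.015). Neither gene's groups overlapped. nlp-26 had been low at 0 h, at 13.2, 2.13 and 23.8 RPKM, while nlp-25 had been at 14.8, 3.74 and 76.0 RPKM. nlp-34, nlp-29 and cnc-11 also fell, and nlp-24 had values of 172, 52.2 and 111 RPKM at the start and 154, 103 and 173 RPKM at the end (0.48 ± 0.58). By the adjusted p alone 8 genes were lower, against 2 without DH2, 12 without DH3 and 0 without DH4. Of 13 CUB-like defence genes, which infection induces, dod-22 and F53E10.4 (irg-3) fell. dod-22 went from 10.5 to 2.97, from 14.8 to 1.81 and from 9.72 to 3.30 RPKM (-1.78 ± 0.62, adjusted p = 0.030), and F53E10.4 from 145 to 42.1, from 102 to 55.3 and from 105 to 38.9 RPKM (-1.35 ± 0.44, adjusted p = 0.032). Both had been lower at 0 h than at the start, at 1.56 to 2.73 RPKM and at 10.6 to 15.7 RPKM.

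Neuropeptide genes were lower almost throughout, by less than the size needed for a call. Of 101 tested, 91 were lower in all 3 pairs (30.8% of all genes) and 0 were higher, with a median change of -0.60. Of the 5 that fell, 4 are also antimicrobial genes, and the fifth was flp-27 (-1.05). All 30 flp genes, which encode FMRFamide-like peptides, were lower in all 3 pairs, with changes from -0.31 to -1.05, and so were 53 of 60 nlp genes outside the antimicrobial list. The abundant flp-1 went from 306 to 188, from 383 to 225 and from 384 to 279 RPKM (-0.64 ± 0.16, adjusted p = 0.062). nlp-18 went from 268 to 148, from 358 to 206 and from 389 to 241 RPKM (-0.78 ± 0.08, adjusted p = 0.040), which passes the p but is under 1 log2. By the adjusted p alone 14 were lower, against 3 without DH2, 17 without DH3 and 0 without DH4, and 69 with a trend of the variance on the mean. Neuronal transmission genes were lower as well, by less: 20 of 29 were lower and 1 higher in all 3 pairs, and the median was -0.28. Of these 29 limma called 0, with 13 at an unadjusted p under 0.05 (3433 of all 13179 genes were). The peptide-processing enzymes egl-21 and egl-3 went from 451 to 567 RPKM down to 338 to 395 RPKM and from 455 to 530 RPKM down to 336 to 381 RPKM. RPKM is a share of each library's reads, so a lower value can also mean more RNA from other tissues, which was not tested.

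Subunits of the proteasome, which degrades tagged proteins, were higher almost throughout, by less than the size needed for a call. Of 31 subunits 29 were higher in all 3 pairs (19.6% of all genes were) and 0 lower (30.8%), with a median change of 0.57. Of the 31 limma called 0, with 28 at an unadjusted p under 0.05 (3433 of all 13179 genes were). At an adjusted p under 0.05 there were 0, and 20 with a trend of the variance on the mean. All 13 tested subunits of the core particle and all 6 tested ATPases of the cap (rpt) were higher in each pair. So were 10 of 12 other tested cap subunits (rpn), rpn-3 and rpn-6 being the exceptions. The core subunit pbs-6 had the largest change: it went from 69.4 to 99.4, from 71.2 to 135 and from 55.9 to 117 RPKM (0.83 ± 0.28, adjusted p = 0.053). The list's median was 0.29 in DH2, 0.70 in DH3 and 0.68 in DH4, and 0.72 without DH2. Genes of ribosome assembly had the opposite sign: 26 of 36 were lower and 1 higher in all 3 pairs (30.8% and 19.6% of all genes), with 0 called, 18 at an unadjusted p under 0.05 and a median of -0.32. nol-5, a core nucleolar protein of snoRNA particles now called nol-58, went from 299 to 217, from 437 to 292 and from 442 to 330 RPKM (-0.49 ± 0.09, adjusted p = 0.085), and the rRNA methylase gene fib-1 from 399 to 392, from 716 to 541 and from 697 to 458 RPKM.

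**Figure D5:**
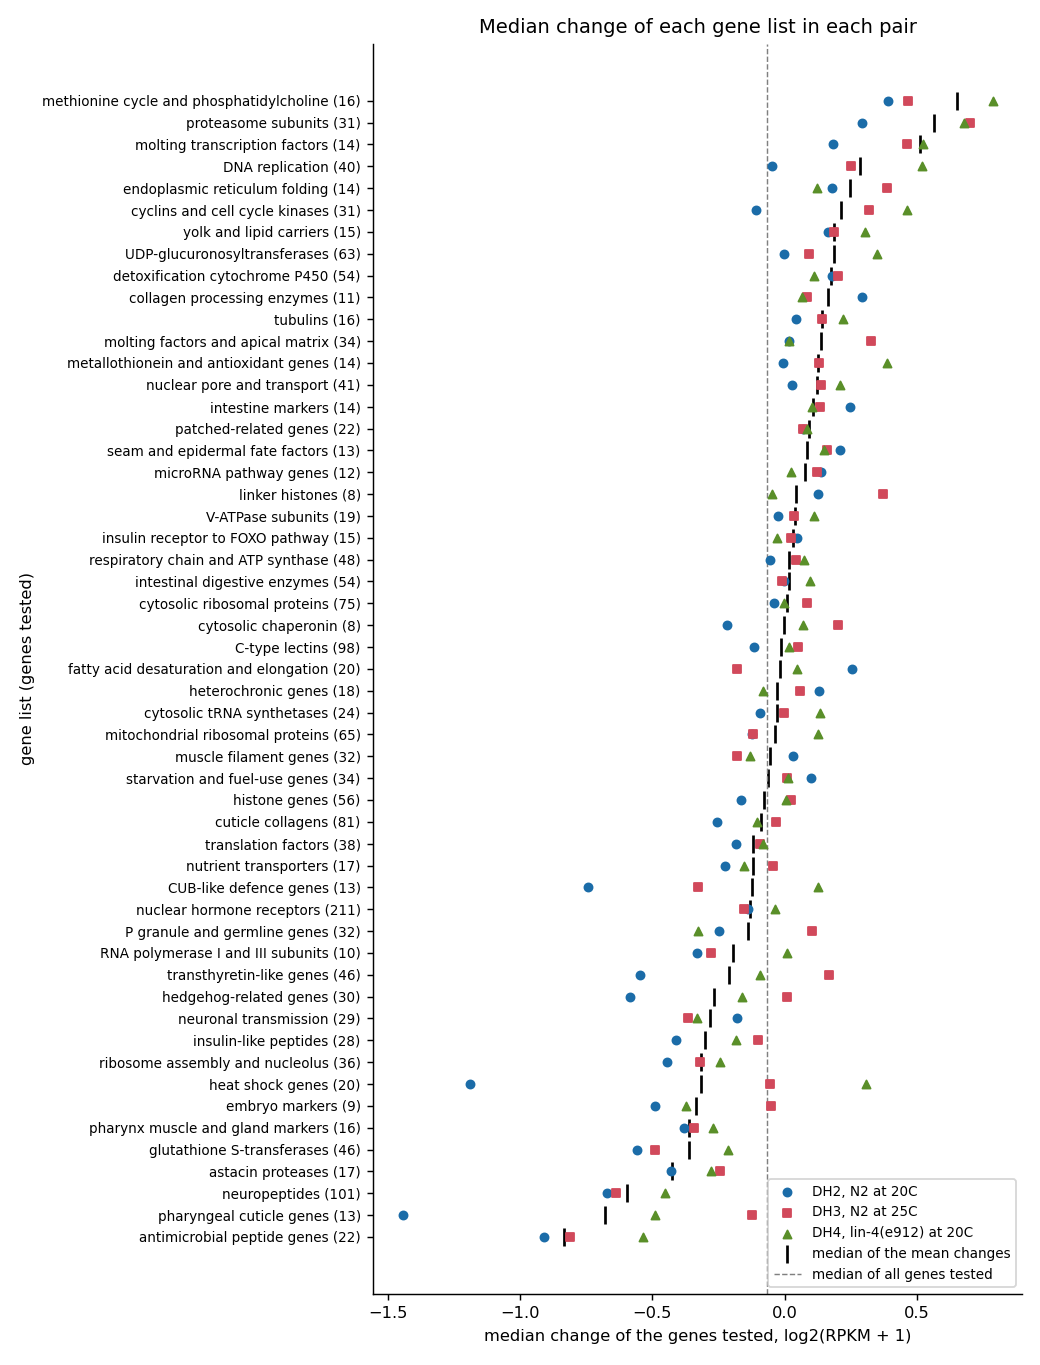
Median change of each gene list with at least 8 genes tested, in log2(RPKM + 1) units, for each pair (coloured symbols) and for the mean over pairs (black tick); the dashed line is the median of all genes tested, -0.07. The methionine list (0.65) and the proteasome (0.57) are at the top, antimicrobial peptides (-0.83) at the bottom, and heat shock and pharyngeal cuticle genes are spread between populations.

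Genes of translation and respiration had medians near 0. Cytosolic ribosomal proteins (75 genes) had a median change of 0.0069, tRNA synthetases (24) -0.03, translation factors (38) -0.12, mitochondrial ribosomal proteins (65) -0.04, the respiratory chain (48) 0.02 and V-ATPase subunits (19) 0.04. limma called 0 in each of them, with 1, 1, 5, 2, 1 and 1 at an unadjusted p under 0.05 (3433 of all 13179 genes were). rps-8, for example, went from 3894 to 3768, from 4780 to 4837 and from 4770 to 4942 RPKM. RNA polymerase I and III subunits (10 genes, median -0.19), the cytosolic chaperonin (8, -0.0047), endoplasmic reticulum folding genes (14, 0.25), nuclear pore genes (41, 0.12), nutrient transporters (17, -0.12), fatty acid desaturation (20, -0.02) and the insulin receptor pathway (15, 0.03) also had 0 calls, with 1, 0, 5, 10, 2, 6 and 1 at an unadjusted p under 0.05. The 28 insulin-like peptides had a median of -0.30 and 0 calls (14 at an unadjusted p under 0.05), with ins-17 at 73.6, 64.2 and 70 RPKM at the start and 46.2, 44.0 and 43.3 RPKM at the end. DNA replication genes (40) had a median of 0.29 and cyclins and cell cycle kinases (31) of 0.21. In both limma called 0, with 8 and 7 at an unadjusted p under 0.05, against 3433 of all 13179 genes. cdk-1, the mitotic kinase, went from 50 to 52.3, from 26.7 to 59.7 and from 23.8 to 54.6 RPKM, so its change was near 0 in DH2 alone. Among 16 tubulins 1 rose (0.698% of all genes did), tba-4, from 35.9, 32.0 and 25.6 RPKM to 73.3, 66.5 and 76.3 RPKM (1.19 ± 0.30, adjusted p = 0.029).

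Among secreted small proteins, transthyretin-like genes fell in 4 of 46 and rose in 1, C-type lectins fell in 5 of 98 and rose in 1. Of all genes 0.948% fell and 0.698% rose, so the lectin rise (1.02%) is near the share of all genes. ttr-30 went from 69.0 to 22.5, from 44.9 to 12.13 and from 75.5 to 32.9 RPKM (-1.52 ± 0.32, adjusted p = 0.020), and ttr-22 from 13.3 to 5.25, from 30.3 to 9.78 and from 41.6 to 11.3 RPKM (-1.51 ± 0.30). clec-1 rose from 106, 33.2 and 32.9 RPKM to 200, 114.4 and 118 RPKM (1.49 ± 0.51), and clec-70 fell from 2.304, 6.71 and 3.77 RPKM to 0.176, 0.136 and 0.888 RPKM (-1.86 ± 0.78, adjusted p = 0.037). scl-14, a secreted protein of the SCP family, was at 49.7, 47.3 and 47.7 RPKM at the start and 9.91, 16.08 and 17.7 RPKM at the end (-1.70 ± 0.45, adjusted p = 0.022). Outside the lists, pqn-98, now called srlf-37, fell from 9.10, 5.10 and 19.4 RPKM to 0.789, 0.545 and 5.09 RPKM, and dct-16, named as a gene downstream of the FOXO factor DAF-16, rose from 70.7, 36.2 and 47.9 RPKM to 198, 140 and 152 RPKM. Of 16 pharynx markers the gland gene phat-5 fell, from 70, 7.10 and 25.8 RPKM to 21.0, 1.50 and 10.1 RPKM (-1.55 ± 0.24, adjusted p = 0.015). Pharyngeal cuticle genes had a median of -0.68 over 13 genes, of which 9 were lower in all 3 pairs (30.8% of all genes). Of the 13 limma called 0, with 8 at an unadjusted p under 0.05 (3433 of all 13179 genes were). The medians by pair were -1.44 in DH2, -0.12 in DH3 and -0.49 in DH4.

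The remaining lists had few or no calls. Over all genes, 3433 of 13179 had an unadjusted p under 0.05. Heat shock genes had medians of -1.19, -0.06 and 0.31 in DH2, DH3 and DH4 with 0 calls (3 at an unadjusted p under 0.05): hsp-16.1 was at 309 RPKM in DH2, against 78.7 and 121 RPKM, at the start and at 98.8, 75.7 and 181 RPKM at the end. Muscle filament genes (32, median -0.05), germline genes (32, -0.14), embryo markers (9 tested, -0.34), linker histones (8, 0.04), metallothionein and antioxidant genes (14, 0.13), microRNA pathway genes (12, 0.08) and the adult markers (1 tested) had 0 calls, with 5, 5, 4, 3, 6, 3 and 1 at an unadjusted p under 0.05. Of 56 histone genes his-32 rose (1.48 ± 0.35). Of 211 nuclear hormone receptors 3 rose (1.42%, against 0.698% of all genes) and 0 fell (47 at an unadjusted p under 0.05). The 3 were nhr-23, nhr-68 and nhr-235. Of 18 heterochronic genes, which time larval fates, nhr-23 was the 1 called. The lin-4 target lin-14 went from 161 to 135, from 133 to 118 and from 186 to 150 RPKM (-0.24 ± 0.07), and lin-28 from 103 to 76.4, from 81.7 to 67.7 and from 89.6 to 89.4 RPKM (-0.23 ± 0.22). The lin-4 gene was not analysed here, and these values give no check of the genotype.

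The sampling time between the ends of the step (4 h at 20C, 3 h at 25C) divided it into equal parts, tested in a fit of 9 libraries and 13162 genes. The first part called 6 genes higher (0.0456%) and 12 lower (0.0912%), with 2396 at an unadjusted p under 0.05. The lower ones included gst-12 (-1.63 ± 0.17, SE), gst-37 (-1.85 ± 0.22), gst-14 (-1.14 ± 0.17), nlp-26 (-1.33 ± 0.15), scl-14 (-1.17 ± 0.17) and R11G11.14 (lipl-3, -1.14 ± 0.14), and col-176 was higher (1.09 ± 0.11). Named after their values were seen, F01D4.8 (cyts-1, -1.47 ± 0.17) and C11E4.2 (gpx-3, -1.13 ± 0.13) were also lower and C05C10.4 (pho-11, 1.21 ± 0.17) higher. The later part called 5 higher (0.038%) and 0 lower (0%), with 1542 at an unadjusted p under 0.05. The 5 were col-149 (3.41 ± 0.29, SE), nas-3 (1.69 ± 0.14), fkb-5, a peptidyl-prolyl isomerase (1.34 ± 0.14), ugt-57 (1.22 ± 0.13) and C01F1.3, now called rml-4 (1.21 ± 0.10), the last named after its values were seen. Between the start and the middle of the step col-149 went from 2.78 to 6.66, from 6.91 to 9.90 and from 1.63 to 1.46 RPKM. For a difference between the parts limma called 0 genes (0 at an adjusted p under 0.05, 617 at an unadjusted p under 0.05), so an early fall and a late rise are not shown to differ in timing.

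Intervals of the same number of sampling times around this one are given side by side, since they share libraries. From 0 h to the middle of the step limma called 1068 genes higher (7.93%) and 1039 lower (7.72%). From the middle to the fourth fed time it called 1 higher (0.00772%) and 0 lower (0%), with 2483 at an unadjusted p under 0.05, and from the end to the fifth 70 higher (0.546%) and 23 lower (0.179%). By size alone, 1111 genes were at least 1 log2 higher and 1150 lower on average in the first of these, 186 and 241 in the second, 273 and 123 in the last, and 137 and 223 in the step described here.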

How the data were processed

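Each library was poly(A) RNA of whole larvae, extracted with Trizol. The authors deposited 1 table of RPKM per gene and library (reads scaled to gene length and library size); BWA 0.5.9 is named in the submitters' processing notes, while the genome build, the annotation and the rule for counting shared reads are given in no source used here. Empty cells were taken as 0, and entries without a gene name were left out, which leaves 19120 genes. Depth was read from the smallest differences among values of low genes, of which 90.5% came out as whole reads within 0.001 per read, and it limits the precision of low genes. Genes with a mean of at least 1 RPKM over the 6 libraries were tested (13179) on log2(RPKM + 1), which understates changes of low genes, with limma 3.58.1 in R 4.3.3 and population as a block, with 2 residual and 4 prior degrees of freedom. Tables and figures used Python 3.11.15, NumPy 2.4.6, pandas 2.3.3 and Matplotlib 3.10.9. The fits were tested on simulated data.

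A call needed a Benjamini-Hochberg adjusted p under 0.05 over all genes tested and at least 1 log2 unit. SD is over the 3 pair changes. The p-values rest on the spread of these changes between populations, moderated by the spread of the other genes, and it carries temperature and genotype too. Differences in level between populations are taken out by the block. The pairing is given by the labels, since both libraries of a pair come from 1 population; their deviations from the group means correlated across genes at 0.745, 0.77 and 0.614 in DH2, DH3 and DH4. Named are the 12 largest rises and 12 largest falls with a gene name, up to 3 called and the 2 most abundant genes of each list, and the 6 called genes with the largest difference between the parts of the step (limma called 0 such genes); genes outside this rule were named after their values were seen. Of the 217 called genes, 125 carry a sequence name only in the deposited table and could not be among the largest rises and falls named. The comparison and the gene lists were chosen with earlier results of these data known.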

Additional observations from a re-analysis of the deposited data

Results flagged for a closer look

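In 4 genes the pair at 25C moved against both pairs at 20C by at least 1 log2 unit in every pair. The difference was not tested, since there is 1 pair at 25C. C35A5.3 went from 8.11 to 20.6 RPKM in DH2 and from 4.42 to 16.13 RPKM in DH4, but from 3.75 to 1.16 RPKM in DH3, a change of -1.14 log2. F45D11.14, F45D11.15 and F45D11.16 went the other way, with a change of 1.57 for each in DH3 (44.7 to 134 RPKM for F45D11.14), against 162 to 12.9 RPKM in DH2 and 21.5 to 5.43 RPKM in DH4. The values of these 3 genes are nearly equal in every library, so they may share reads and are not separate measurements.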

How the results depend on the processing

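No alternative could be expected to change the direction of a called gene, since each moved the same way in 3 of 3 pairs by at least 1 log2 on average. The median-of-ratios rescaling moved the median of all genes only from -0.07 to -0.02. All 217 called genes kept their direction under that rescaling, which is therefore no check of the calls. The number of calls differed between the alternatives. Against 92 genes higher and 125 lower in the step, a pseudocount of 0.1 gave 55 higher, a pseudocount of 5 gave 50 higher and 61 lower, and no filter on low values, with 18777 genes tested, gave 24 and 31. Leaving out 1 population gave 0 to 156 higher and 0 to 347 lower. Without the replicate block, which gives up the pairing by population, limma called 0 and 0 (1318 at an unadjusted p under 0.05). For the first part of the step (6 higher, 12 lower) the counts were 1 and 0 with a pseudocount of 0.1, 3 higher with 5, 19 lower at a mean of at least 5 RPKM, 24 lower with a trend of the variance on the mean, 0 and 0 without the block, and 0 to 3 higher and 0 to 2 lower without 1 population. For the later part (5 higher, 0 lower) they were 0 higher with a pseudocount of 0.1, 2 higher and 1 lower with 5, 0 higher with no filter, 3 higher after median-of-ratios rescaling, 0 higher without the block, 0 higher without any 1 population, and 1 and 3 lower at a mean of at least 5 RPKM and with the trend. The fits without a population hold fewer samples and the fit with no filter more genes; otherwise the cause was not tested. Of the named genes, 58 lost their call without the block, 58 without DH4, 42 with no filter, 26 without DH2, 25 and 17 with pseudocounts of 0.1 and 5, 4 after the rescaling and 1 without DH3; 0 did so with the trend or at a mean of at least 5 RPKM. A search for promoter motifs was planned and not run. With 3 pairs, 3433 genes had an unadjusted p under 0.05 and 361 an adjusted one, which is the reach of this design.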
